A study of Mus musculus with 2 samples.

Results

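Cytidine deaminase genes of the APOBEC family and genes of cofactors known from antibody class switching were examined in RNA-seq of the mouse line CH12.LX, which was established from a B-cell lymphoma. The 8 genes were taken by symbol from the 43346 genes of the deposited tables: the deaminase genes Apobec1, Apobec2 and Apobec3, the transcription elongation genes Supt5, Supt4a and Supt6, the splicing regulator Ptbp2 and the 14-3-3 gene Ywhaz. Each of the 8 matched a single gene identifier. The strain is B10.H-2aH-4bp/Wts. The cells are labelled female, no treatment or genetic change is named, and its age and stage are given as unknown. Both libraries, biological replicates 1 and 2 from separate biosamples, carry ERCC spike-in RNAs and were made from RNA over 200 nt. The labels call the assay total RNA-seq and also name poly(A)+ RNA, and which of these holds could not be settled. The replicates form a single group of one cell line, so levels are described across genes and between replicates, and no test between conditions exists.

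Cytidine deaminases of this family remove the amino group from cytosine and so write uracil into RNA or single-stranded DNA. In activated B cells, class switching takes place in transcribed antibody genes and involves RNA polymerase II elongation factors, RNA-binding proteins and 14-3-3 adaptors that bind the switch regions. CH12 cells are widely used to study the switch of antibody class to IgA. Apobec1 edits messenger RNA, Apobec3 restricts retroviruses, and Apobec2 is known chiefly from skeletal and heart muscle.

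The catalytic motif of the family, in which a histidine and a glutamate are followed by a pair of cysteines that hold the zinc ion, is shown because the 3 deaminase genes share it. It was searched in the coding sequences of GENCODE M21 (GRCm38), and the codons of the histidine, the glutamate and both cysteines are in capitals.
Apobec1-201: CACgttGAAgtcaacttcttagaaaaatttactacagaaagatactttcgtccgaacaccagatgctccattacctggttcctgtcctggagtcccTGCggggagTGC
Apobec2-201: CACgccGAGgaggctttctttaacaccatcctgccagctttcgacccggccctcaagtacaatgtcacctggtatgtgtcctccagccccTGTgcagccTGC
Apobec3-203, first copy: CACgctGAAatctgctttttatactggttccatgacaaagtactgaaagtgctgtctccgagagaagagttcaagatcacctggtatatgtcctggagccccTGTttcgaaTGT
Apobec3-203, second copy: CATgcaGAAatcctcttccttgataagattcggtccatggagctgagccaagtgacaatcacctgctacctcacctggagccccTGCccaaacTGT
Apobec1 and Apobec2 each held 1 copy of the motif, and Apobec3 held 2 copies. Between the glutamate and the proline before the first cysteine lay 28 codons in Apobec1, 26 in Apobec2, and 30 and 24 in the copies of Apobec3, while 2 codons separated the cysteines in every copy. Supt5, Supt4a, Supt6 and Ptbp2 held 0 copies, and Ywhaz was not searched.

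Mouse Apobec3 exists in forms with and without exon 5, which is shown because the isoform results turn on it. Exon 5 of Apobec3-202 lies on the plus strand at chr15:79899020-79899118 (GRCm38), inside the coding sequence. It has 99 nt and 33 codons, so the coding sequence has 1287 nt with it in Apobec3-202 and 1188 nt without it in Apobec3-203. The joins are given as the last 20 nt of exon 4 in lower case and the first 20 nt of the next exon in capitals.
Exon 5: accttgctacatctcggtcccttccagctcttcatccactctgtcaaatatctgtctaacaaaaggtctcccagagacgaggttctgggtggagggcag
Exon 4 joined to exon 6, Apobec3-203: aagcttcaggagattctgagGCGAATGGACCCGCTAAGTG
Exon 4 joined to exon 5, Apobec3-202: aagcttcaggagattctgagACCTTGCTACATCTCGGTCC

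Expected counts, the authors' estimates of reads per gene, totalled 24469094 in replicate 1 and 23586580 in replicate 2. Of 10 B-cell marker genes, 10 reached 1 TPM (transcript abundance scaled to a fixed total per library) in both libraries, with Pax5 lowest at a mean of 8.43 TPM and Cd74 highest at 2359 TPM. None of 5 T-cell markers and none of 5 myeloid markers did, and their summed levels were 0.49 and 0.51 TPM (T cell) and 0.81 and 0.78 TPM (myeloid) in replicates 1 and 2. Cd3e, Cd14 and S100a8 had 0 counts in both. All 10 reference genes reached 1 TPM, with a median of 789 TPM. Over 9859 genes with a mean of at least 20 counts, and counts within 1e-09 of a whole number in both libraries, the libraries differed by more than counting error, with a chi-square of 10.1 per degree of freedom, and they were kept as 2 samples.

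Of the 8 deaminase and cofactor genes, 7 reached 1 TPM in both libraries, and Apobec2 did not. The same threshold was passed by 25.4% of all genes and by 45.9% of protein-coding genes. The median of the 8 mean levels was 23.8 TPM, beside 0.41 TPM for all 21474 protein-coding genes and 19.2 TPM for the 9862 expressed ones. Levels fell in the order Ywhaz, Supt4a, Apobec1, Supt5, Supt6, Ptbp2, Apobec3, Apobec2. In each of the 7 neighbouring pairs the replicate values of the genes did not overlap, although the steps ranged from 1.07-fold between Supt5 and Supt6 to 30.4-fold between Apobec3 and Apobec2.

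**Figure D1:**
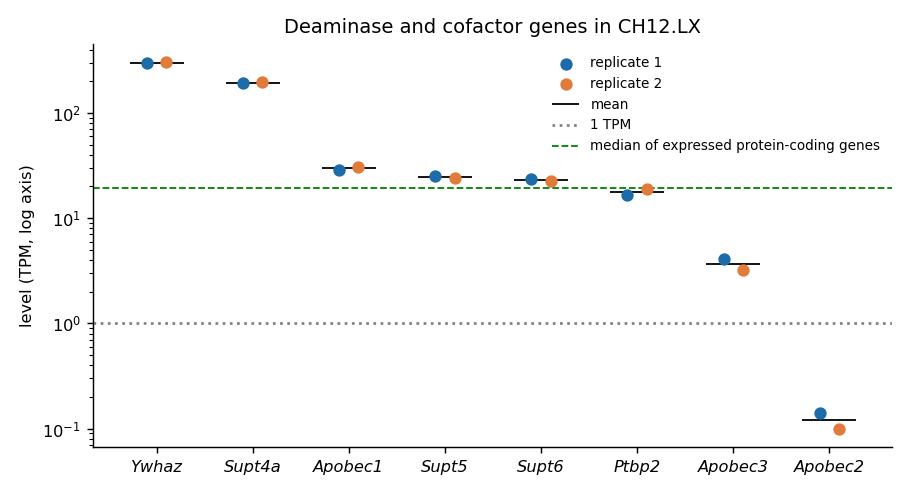
Level of each of the 8 genes in CH12.LX (TPM, log axis), with a point for each replicate. Ywhaz stands highest at a mean of 301 TPM and Apobec2 lowest at 0.12 TPM, and the replicate values of neighbouring genes do not overlap.

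Apobec1 was the highest of the 3 deaminase genes. Its protein is the catalytic subunit that edits apolipoprotein B messenger RNA in the gut, and it lies on chromosome 6 (ENSMUSG00000040613, minus strand, chr6:122577792-122602444, GRCm38). Apobec1 had 28.5 TPM in replicate 1 and 30.9 TPM in replicate 2, from 999 and 1011 counts, a mean of 29.7 ± 1.70 TPM (SD, n = 2, as for every mean here). That level lay above 82.5% of protein-coding genes.

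The proteins that Apobec1 needs or that modulate it were divided. Of 7 listed partners, 5 were expressed, with a median of 106 TPM over the list. A1cf, which encodes the complementation factor of apolipoprotein B editing, had 0 counts in both libraries, which allows up to 3 counts in each. Rbm47, whose product can replace A1cf as cofactor, had 0.06 TPM in replicate 1 and 0.34 TPM in replicate 2, from 6 and 5 counts. The other partners are general RNA-binding proteins and a co-chaperone, and they ranged up to Hnrnpab at 865 TPM, with Syncrip at 189 TPM, Celf2 at 115 TPM, Dnajb11 at 106 TPM and Khsrp at 15.9 TPM. Thus the deaminase gene was expressed beside 0 counts for A1cf and at most 6 counts for Rbm47.

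Of 8 genes listed as candidate Apobec1 targets, 7 were expressed, with a median of 74.2 TPM. The exception was Apob, the classic target, with 2 counts in replicate 1 and 3 counts in replicate 2 (0.01 TPM in each). B2m, which encodes the light chain of MHC class I, stood highest at 1431 TPM. The scavenger receptor gene Cd36 had 449 TPM and Tmbim6 had 198 TPM. Editing itself cannot be read from these tables, which hold no base calls. Of 6 liver and gut epithelium markers, only Cdh17 passed 1 TPM, at 9.55 TPM, and Fabp2 had 0 counts; the list summed to 9.35 TPM in replicate 1 and 10.3 TPM in replicate 2.

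Apobec2, on chromosome 17 (chr17:48419231-48432930, minus strand), was close to the limit of detection. It had 3 counts in replicate 1 and 2 counts in replicate 2, which correspond to 0.14 and 0.10 TPM. The exact 95% Poisson intervals of those counts, 0.619 to 8.77 and 0.242 to 7.22, overlap almost wholly. Intervals of this kind cover counting error alone, since several reads can be copies of 1 molecule. Of 6 skeletal and heart muscle markers, Tnnt2 alone passed 1 TPM, with a mean of 3.27 TPM, and Myod1 had 0 counts; the list summed to 2.90 TPM and 4.24 TPM in replicates 1 and 2. Few cells with Apobec2 RNA and little of it in every cell cannot be told apart in bulk RNA.

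Apobec3, the only mouse gene of the APOBEC3 group, lies on chromosome 15 (ENSMUSG00000009585, plus strand, chr15:79891659-79915906). It was expressed at a low level, with 4.09 TPM in replicate 1 and 3.20 TPM in replicate 2 and a mean of 3.65 ± 0.629 TPM. Its 173 counts in replicate 1 have an exact 95% Poisson interval of 148 to 201, and its 125 counts in replicate 2 one of 104 to 149. The intervals overlap at their ends, take no account of library depth and are no test of whether the replicates agree. Apobec1 was 6.97 times as high as Apobec3 in replicate 1 and 9.66 times in replicate 2, a mean ratio of TPM values of 8.31 ± 1.90. The posterior mean TPM that the authors deposited beside the TPM was higher for Apobec3, at 5.11 and 4.25. The authors' credibility bounds of TPM were 4.21 to 5.97 in replicate 1 and 3.41 to 5.13 in replicate 2. The TPM values of Apobec3 thus lay below these bounds in both replicates. By posterior mean TPM the mean ratio of Apobec1 over Apobec3 was 6.42.

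Apobec3 stood low among the listed genes for retroviruses, which are restriction and sensing genes and the receptor genes Slc7a1 and Xpr1. Of those 14 genes 13 were expressed, with a median of 15.2 TPM. Trim28, which silences endogenous retroviruses, was highest at 370 TPM. Bst2, which tethers budding virus to the cell, had 209 TPM, and Samhd1, which depletes the nucleotides that reverse transcription needs, had 56.6 TPM. Mov10 had 5.77 TPM and Fv1, a capsid restriction gene, had 2.30 TPM. Ifitm3 had 0 counts in both libraries. Fv1 was the only expressed gene of the list with a mean level below that of Apobec3.

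**Figure D2:**
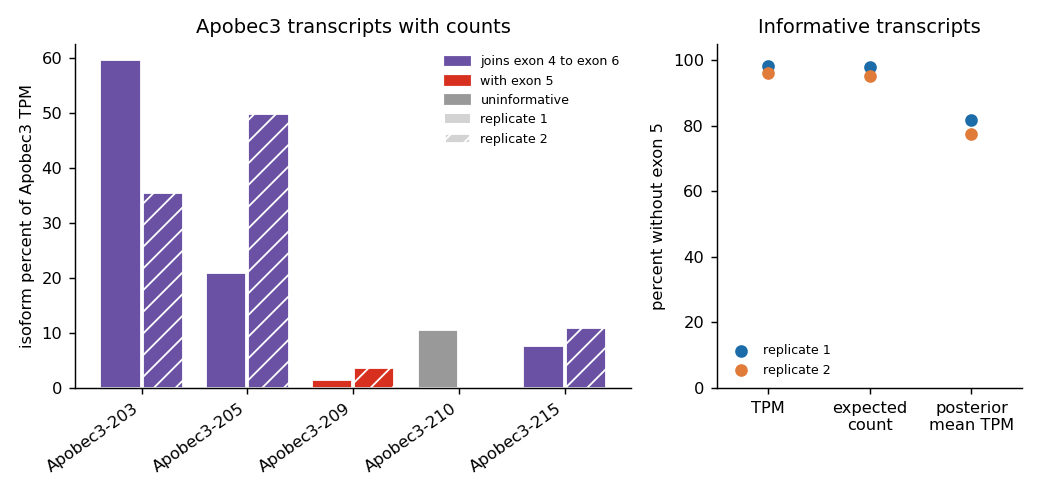
Left, percent of Apobec3 TPM on each transcript with counts, by replicate, coloured by how the transcript treats exon 5. Right, percent without exon 5 of the transcripts that span it, by 3 deposited quantities; it stands at 98.4 and 96.3 by TPM and at 81.9 and 77.7 by posterior mean TPM.

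The tables hold 17 Apobec3 transcripts, of which 12 had 0 counts in both libraries. Of the 17, 7 join exon 4 to exon 6, 5 contain exon 5 and 5 do not span it. Transcripts that join exon 4 to exon 6 held 3.59 TPM in replicate 1 and 3.09 TPM in replicate 2, from 153 and 119 counts. Those with exon 5 held 0.06 TPM and 0.12 TPM, from 3.29 and 6.04 counts, all on Apobec3-209. Of the transcripts that span it, 98.4% in replicate 1 and 96.3% in replicate 2 lacked exon 5, a mean of 97.3% ± 1.48 by TPM. By expected counts the mean was 96.5% ± 1.93.

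That share depended on the estimate used. By posterior mean TPM it was 81.9% and 77.7%, a mean of 79.8% ± 3.02. On that scale the 12 transcripts without counts held 1.65 TPM in replicate 1 and 1.80 TPM in replicate 2. The form without exon 5 was the major one by all 3 quantities. The posterior SD of Apobec3-209 was 3.99 counts in replicate 1, above its count of 3.29, and 4.28 counts in replicate 2, below its count of 6.04. Apobec3-202, with exon 5 and 0 counts, had larger posterior SDs of 14.53 and 10.75 counts in replicates 1 and 2. Its posterior mean TPM was 0.30 and 0.26, against 0.12 and 0.18 for Apobec3-209.

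The division of reads among the exon 5-skipping transcripts differed between replicates by TPM, but within overlapping bounds of the estimates. Apobec3-203 held 59.5% of the gene's TPM in replicate 1 and 35.5% in replicate 2, while Apobec3-205 held 20.9% in replicate 1 and 49.9% in replicate 2. By posterior mean TPM the mean shares were lower, at 28.3% for Apobec3-203 and 18.3% for Apobec3-205, against 47.5% and 35.4% by TPM. The posterior SDs of Apobec3-203 were 24.2 counts against 109 counts in replicate 1 and 19.2 against 48.7 in replicate 2. Those of Apobec3-205 were 18.7 against 31.3 and 18.7 against 56.2. The authors' credibility bounds of TPM for Apobec3-203 were 0.714 to 2.93 in replicate 1 and 0.0045 to 1.69 in replicate 2. For Apobec3-205 they were 4.14e-05 to 1.68 and 8.54e-06 to 1.90. The bounds of each transcript overlapped between replicates, so a shift between them cannot be read from these estimates. The retained-intron transcript Apobec3-210 held 10.5% in replicate 1 and 0% in replicate 2. Apobec3-215, annotated for nonsense-mediated decay, held 7.60% and 10.9%.

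Both RefSeq starts of Apobec3 are shown by the 250 nt before them, because the spanning transcripts begin at different starts. All spanning transcripts with counts begin at the upstream start, and Apobec3-201, which begins at the downstream one, had 0 counts in both libraries. Those counts are estimates that divide shared reads. By posterior mean TPM, Apobec3-201 held 0.23 TPM in replicate 1 and 0.39 TPM in replicate 2, or 4.41% and 9.08% of the gene. Whether the downstream start is used was not tested. The sequences, from RefSeq on GRCm38.p6 and read 5′ to 3′ on the plus strand, lie at chr15:79892158-79892407 and chr15:79894773-79895022, and CG dinucleotides are in capitals. The window before the start of Supt4a, at chr11:87737301-87737550 on the plus strand, is added as the one with the most CG dinucleotides.
Apobec3, upstream start: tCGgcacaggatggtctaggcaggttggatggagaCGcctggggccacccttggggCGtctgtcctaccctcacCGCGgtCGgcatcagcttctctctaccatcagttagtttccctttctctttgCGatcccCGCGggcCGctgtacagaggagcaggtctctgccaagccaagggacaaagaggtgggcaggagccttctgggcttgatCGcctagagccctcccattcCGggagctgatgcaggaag
Apobec3, downstream start: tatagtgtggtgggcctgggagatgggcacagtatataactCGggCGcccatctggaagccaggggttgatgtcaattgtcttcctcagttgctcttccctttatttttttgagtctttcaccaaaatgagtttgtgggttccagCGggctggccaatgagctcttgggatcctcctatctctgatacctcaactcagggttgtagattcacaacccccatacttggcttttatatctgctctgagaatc
Supt4a: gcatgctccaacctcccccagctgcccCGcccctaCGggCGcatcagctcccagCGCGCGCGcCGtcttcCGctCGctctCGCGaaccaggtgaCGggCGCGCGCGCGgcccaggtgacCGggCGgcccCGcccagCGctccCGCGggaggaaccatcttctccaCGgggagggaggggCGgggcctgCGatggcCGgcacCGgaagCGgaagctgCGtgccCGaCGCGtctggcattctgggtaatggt
The upstream Apobec3 window held 12 CG dinucleotides and the downstream one 3, while Supt4a held 34, and the median over 32851 RefSeq windows of that length was 6. Windows were found for 7 of the 8 genes, none for Ywhaz. Apobec1 held 7 CG, Apobec2 4, Supt6 16, Supt5 22 and Ptbp2 23, so 6 of 8 windows were above the median. TATAAA was searched on both strands. It lay 34 nt before the start in Apobec2, 21 nt before the downstream start in Apobec3 and 212 nt before the start in Apobec1, both of these on the other strand, and 12.4% of all windows hold it on either strand. For Apobec2-201 and Supt6-201, GENCODE M21 places the start upstream of the RefSeq start. The whole Supt6 window, at chr11:78245704-78245953, lies within the span of Supt6-201, which reaches 78245987. These matches describe letters only.

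The elongation factor genes were all expressed, at 2 distinct levels. Supt5 (ENSMUSG00000003435, chr7:28314891-28338746, minus strand) and Supt4a (ENSMUSG00000020485, chr11:87737552-87743623, plus strand) encode the large and small subunits of DSIF, which travels with RNA polymerase II. Supt6 (ENSMUSG00000002052, chr11:78206746-78245987, minus strand) encodes the histone chaperone Spt6. Supt5 had 25.1 TPM in replicate 1 and 24.2 TPM in replicate 2, a mean of 24.6 ± 0.629 TPM. Supt6 had 23.3 and 22.6 TPM, a mean of 23.0 ± 0.495 TPM. Supt4a stood far above both, with 193 TPM in replicate 1 and 195 TPM in replicate 2, and its level exceeded that of 96.9% of protein-coding genes.

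Within DSIF the transcript of the small subunit was in excess per length. Supt4a was 7.68 times as high as Supt5 in replicate 1 and 8.07 times in replicate 2, a mean ratio of 7.87 ± 0.270. Supt6 over Supt5 was 0.929 and 0.934, a mean ratio of 0.932 ± 0.00371. By counts, which are not per length, Supt4a had 1987 and 1940, Supt5 had 1723 and 1595, and Supt6 had 2978 and 2736. The authors' credibility bounds of TPM overlapped between Supt5 (23.2 to 25.5 in replicate 1 and 22.5 to 24.8 in replicate 2) and Supt6 (21.8 to 23.5 and 21.2 to 23.0). So the order of Supt5 and Supt6 rests on a step that is larger than the spread of this pair of replicates and within the bounds of the estimates. Between Apobec1 and Supt5 the bounds overlapped in replicate 1, where Apobec1 had 25.5 to 31.5 TPM, and not in replicate 2, where it had 27.9 to 34.1 TPM.

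The genes listed with Spt5 and Spt6 are partners and, as Supt3 and Supt7l, others that share the Spt name. Of the 18 listed genes 18 were expressed, with a median of 30.1 TPM. Ssrp1, which encodes a subunit of the histone chaperone FACT, was highest at 223 TPM, and its partner Supt16 had 65.0 TPM. Supt3, which shares the Spt name, was lowest at 6.05 TPM. Cdk9, the kinase that phosphorylates Spt5, had 55.9 TPM and its cyclin gene Ccnt1 30.3 TPM. The 4 genes of the negative elongation factor were Nelfa at 11.4 TPM, Nelfb at 36.8 TPM, Nelfcd at 30.8 TPM and Nelfe at 29.9 TPM. The Paf1 complex gene Paf1 had 38.2 TPM, and Iws1, a binding partner of Spt6, had 12.0 TPM. Among them Supt5 and Supt6 were below the list's median, while Supt4a was above all but Ssrp1. No feature of the tables carries the symbol Supt4b, a copy of Supt4a.

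Ptbp2 encodes the neuronal polypyrimidine tract-binding protein, which takes part in class switching in CH12 cells. Its gene lies on chromosome 3 (ENSMUSG00000028134, chr3:119718742-119784466, minus strand). Ptbp2 had 16.5 TPM in replicate 1 and 19.0 TPM in replicate 2, from 1081 and 1195 counts, with a mean of 17.7 ± 1.77 TPM. The exact Poisson intervals of the raw counts, 1018 to 1147 in replicate 1 and 1128 to 1265 in replicate 2, overlap slightly. Those intervals take no account of library depth. The authors' credibility bounds of TPM, 15.0 to 16.9 in replicate 1 and 17.5 to 19.6 in replicate 2, do not overlap.

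Ptbp1, the paralog that represses Ptbp2 in cells other than neurons, was far higher. It had 217 TPM in replicate 1 and 199 TPM in replicate 2, so Ptbp2 over Ptbp1 was 0.0758 and 0.0955, a mean ratio of 0.0856 ± 0.0140. Ptbp3 had 63.9 TPM. Of the 5 listed paralogs and partners 4 were expressed, with a median of 63.9 TPM, Matr3 highest at 315 TPM and Raver2 lowest at 0.04 TPM. Of 5 neuron markers Map2 alone passed 1 TPM, at 4.56 TPM in replicate 1 and 3.79 TPM in replicate 2. Rbfox3, Syt1 and Stmn2 had 0 counts in both, and the list summed to 4.59 and 3.82 TPM. The tables hold a single Ptbp2 transcript, the coding Ptbp2-201, so skipped forms of Ptbp2 cannot be measured from them.

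Ywhaz (ENSMUSG00000022285, chr15:36770770-36796929, minus strand) encodes 14-3-3 zeta, an adaptor that binds phosphorylated proteins. It was the highest of the 8 genes, with 298 TPM in replicate 1 and 303 TPM in replicate 2, a mean of 301 ± 3.23 TPM, above 98.1% of protein-coding genes. Its expected counts were 14441 and 13558. Ywhaz was the only one of the 8 with a posterior SD of its gene count above 0, at 29.5 counts in replicate 1 and 29.0 in replicate 2, which marks reads shared with other genes. That SD is small beside the counts.

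Of the 7 genes of the 14-3-3 family 6 were expressed, with a median of 98.9 TPM. Ywhaq was highest at 407 TPM, followed by Ywhaz, Ywhah at 145 TPM, Ywhae at 98.9 TPM, Ywhab at 44.8 TPM and Ywhag at 32.7 TPM. Sfn, the epithelial member, had 0.65 TPM. Ywhaz held 29.1% of the family's TPM in replicate 1 and 29.3% in replicate 2, a mean of 29.2% ± 0.200.

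Of 16 other nucleoside and RNA deaminase genes, 9 were expressed, with a median of 3.06 TPM. Dctd, which deaminates dCMP, was highest at 42.4 TPM. The AMP deaminase gene Ampd2 had 24.4 TPM, the adenosine deaminase gene Ada 17.5 TPM and the RNA-editing gene Adar 9.16 TPM. Apobec4, Cda, Adad1 and Adad2 had 0 counts in both libraries. Apobec1 was thus above all but Dctd of the 16, and Apobec3 lay near their median.

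**Figure D3:**
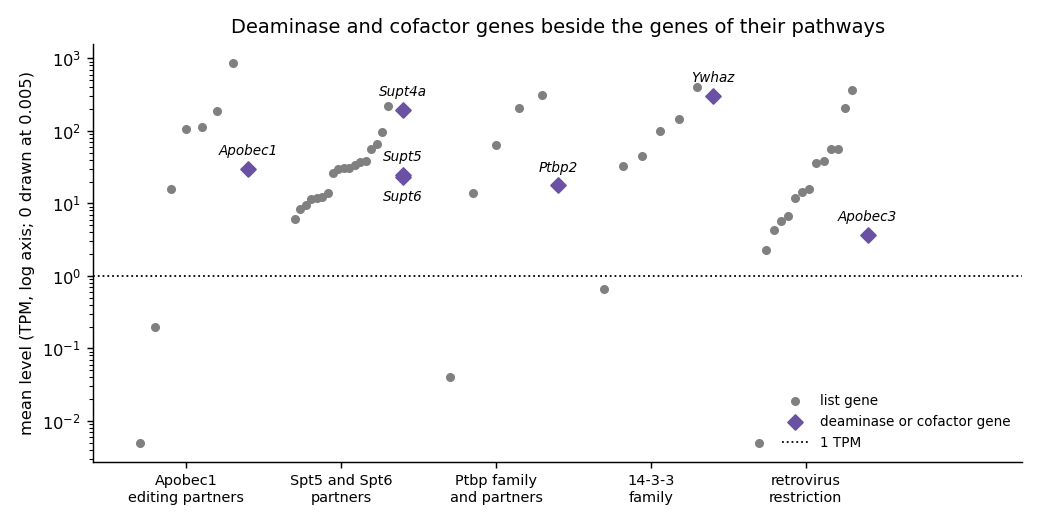
Mean level of each listed gene (TPM, log axis, 0 drawn at 0.005) in 5 pathway lists, with the deaminase and cofactor genes as diamonds. Apobec3 lies low among the retrovirus genes, Supt4a high among the genes listed with Spt5 and Spt6, and Ywhaz second in its family.

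Isoforms of Apobec1, Supt4a and Supt6 kept their order in both replicates. For Apobec1, Apobec1-201 held 61.0% and Apobec1-202 held 22.6% of the gene's TPM in replicate 1, and 60.1% and 21.1% in replicate 2. Both have a coding length of 687 nt. The short retained-intron transcript Apobec1-204, of 560 nt, held 16.5% and 15.4%, from only 33.1 and 32.1 counts, a mean of 3.24% of the gene's counts against 15.9% of its TPM. For Supt4a, the coding Supt4a-201 held 93.1% in replicate 1 and 91.6% in replicate 2, and the decay-annotated Supt4a-203 held 6.34% and 7.56%. For Supt6, the coding Supt6-201 held 94.2% and 91.2%, and the retained-intron Supt6-202 held 5.85% and 8.79%, a mean of 4.38% by counts against 7.32% by TPM. Supt5, Ptbp2 and Apobec2 have 1 transcript each in the tables.

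Ywhaz was divided between a pair of coding transcripts. Ywhaz-204, of 2122 nt, held 62.5% in replicate 1 and 69.2% in replicate 2, and Ywhaz-201, of 3288 nt, held 35.8% and 28.3%. They have the same coding length of 735 nt and differ in their first exon and 3′ end, at 36771704 for Ywhaz-204 and 36770770 for Ywhaz-201 on chromosome 15. Ywhaz-206, whose effective length was 2.13 nt in replicate 1 and 1.15 nt in replicate 2, had 0 counts yet posterior mean TPM values of 22.6 and 42.5.

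**Figure D4:**
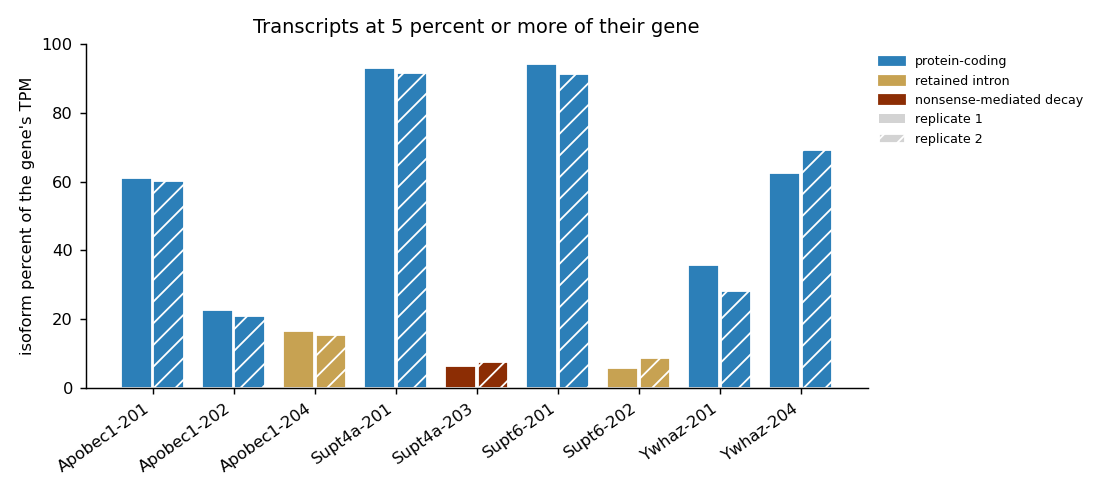
Percent of the gene's TPM on each transcript of Apobec1, Supt4a, Supt6 and Ywhaz at 5 percent or more, by replicate and transcript type. Coding transcripts hold most of each gene, and Ywhaz is divided between Ywhaz-204 and Ywhaz-201.

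Replicates were compared by subtracting log2(TPM + 0.5) in replicate 2 from that in replicate 1, for 11661 genes whose expected counts averaged 20 or more. The pseudocount understates differences of low genes. Over 1.5-fold, 1.84% of these genes were higher and 0.858% lower in replicate 1, 2.69% in all. Of the 7 genes that could be compared, 0 passed 1.5-fold, and Apobec2 had too few counts. Their median absolute difference was 0.05, against 0.14 over all 11661 genes.

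Apobec3 differed most, by 0.31, more than 85.5% of genes, and Ptbp2 followed at -0.20, more than 67.6%. Apobec1 differed by -0.11, Supt5 by 0.05, Supt6 by 0.04, Supt4a by -0.02 and Ywhaz by -0.02, and the sign for Ywhaz turned to 0.02 with TMM scaling and to 0.03 with median-of-ratios scaling. Scaled to the spike-ins instead, the median of all genes moved to -0.29, and Supt5 and Supt6 then stood at -0.26 and -0.25. Apobec3 had the fewest counts of the 7.

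**Figure D5:**
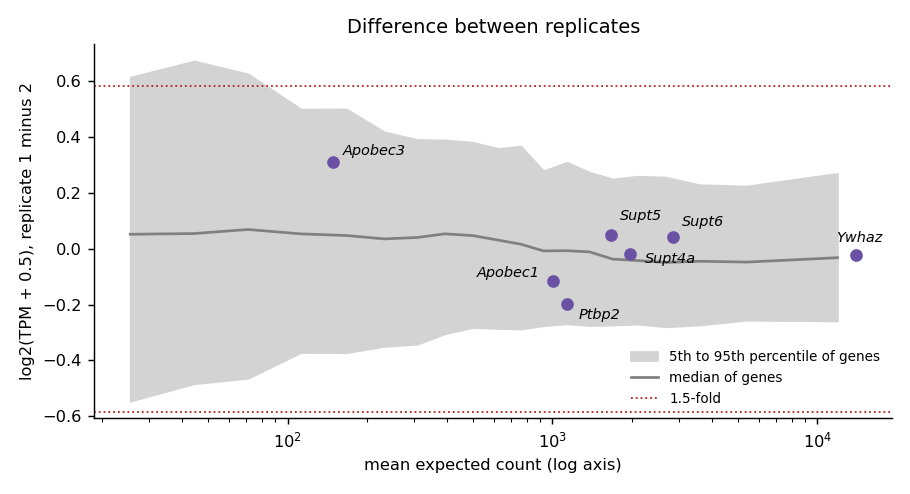
Difference between replicates (replicate 1 minus replicate 2, log2 of TPM + 0.5) against mean expected count (log axis), with the 5th to 95th percentile of genes shaded. All 7 genes lie within 1.5-fold, with Apobec3 highest at 0.31 and Ptbp2 lowest at -0.20.

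Some exons are shared with neighbours, and whether counting used the strand is not given in the sources used here. In GENCODE M21, Cbx7 on the opposite strand shares 100 nt of exon with Apobec3 and had 6.24 TPM in replicate 1 and 4.30 TPM in replicate 2. Sdf2, opposite Supt6, shares 242 nt and had 71.4 and 68.2 TPM. D730005E14Rik shares 676 nt with Apobec3, and Gm44709 shares 433 nt with Supt5 on the other strand; neither has a feature in the tables. The part of such reads in the levels of Apobec3, Supt5 and Supt6 was not tested.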

How the data were processed

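RNA was measured in 2 libraries of CH12.LX, 1 group, with replicate numbers from the labels. Per the files' accompanying notes, the authors aligned reads to mm10 with GENCODE M4; which aligner, quantifier, version and strand setting they used is not given in the sources used here. The authors deposited expected counts, by the file headers reads estimated for each feature after dividing shared ones, without normalization. The deposited TPM values are scaled by the authors over all features, spike-ins included. The deposited percent values give each transcript's share of its gene's TPM. FPKM values were deposited by the authors and not used.

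Of 69691 features 43346 are genes, and 42462 matched a symbol by identifier in GENCODE M21 (GRCm38, the same assembly). Of 37 transcripts of the 8 genes, 34 had the same length in M21. Expressed means 1 TPM or more in both libraries. With 1 library on each side no test was possible. That the libraries come from separate biosamples is per the labels.

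The genes and lists were chosen with earlier results of these data known. Named are the 8 genes, the extremes of each list, list genes whose role is described, and transcripts at 5 percent or more. Promoter windows came from RefSeq (GRCm38.p6). Python 3.11.15, pandas 2.3.3 and scipy 1.17.1 were used. Expected counts were rounded for edgeR 4.0.16 TMM factors (R 4.3.3), and median-of-ratios factors came from DESeq2 1.42.0. Adat3 and Supt4b had no feature of that symbol.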

Additional observations from a re-analysis of the deposited data

How the results depend on the processing

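Of the 5 alternatives for the levels, only posterior mean TPM could change the order of the 8 genes, and it did not. Rescaling multiplies all genes of a library by the same factor. Leaving out either replicate gives the other replicate's values, and the replicate values of neighbouring genes did not overlap. Levels by posterior mean TPM were 0.17 for Apobec2, 4.68 for Apobec3 and 24.0 for Supt5. They were 189 for Supt4a, 22.4 for Supt6 and 326 for Ywhaz. Of the Ywhaz values, 313 in replicate 1 and 339 in replicate 2, Ywhaz-206 with 0 counts held 22.6 and 42.5. The cause of the shifts was not tested. Leaving out features with an effective length under 50 nt raised TPM by construction, to 32.4 for Apobec1, 26.8 for Supt5, 211 for Supt4a, 25.0 for Supt6 and 328 for Ywhaz. Scaling over protein-coding nuclear genes did so too, to 39.1 for Apobec1, 0.158 for Apobec2, 4.79 for Apobec3, 32.4 for Supt5, 255 for Supt4a, 30.2 for Supt6, 23.3 for Ptbp2 and 396 for Ywhaz. Ratios by expected count, which are not per length, were 1.18 for Supt4a over Supt5, 1.72 for Supt6 over Supt5, 0.103 for Ptbp2 over Ptbp1 and 36.4% for Ywhaz in its family, which was 31.4% by posterior mean TPM. Ywhaz-204 held 59.1% by posterior mean TPM and 55.1% by counts, and the share of Apobec3 without exon 5 was 79.8% by posterior mean TPM; the cause was not tested. At 5 TPM, 6 of the 8 genes counted as expressed. Scaled to the spike-ins, where the median gene stood at -0.29, differences between replicates were -0.38 for Apobec1, 0.092 for Apobec3, -0.26 for Supt5, -0.33 for Supt4a, -0.25 for Supt6, -0.51 for Ptbp2 and -0.28 for Ywhaz. Of 11661 genes 314 passed 1.5-fold, against 957 with no filter and 126 at a mean of 100 or more counts, where different numbers of genes enter. No paired analysis was possible because the libraries form 1 group. Depth limits Apobec2, with 3 and 2 counts, and the isoforms of Apobec3, with 173 and 125.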

Other observations

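Some genes of the lists, chosen after their values were seen, differed more between replicates by TPM than any of the 8 genes did. Slc7a1, which encodes the receptor of ecotropic mouse retroviruses, had 15.0 TPM in replicate 1 and 8.65 TPM in replicate 2. Polr2a, which encodes the largest subunit of RNA polymerase II, had 11.4 TPM in replicate 1 and 7.88 TPM in replicate 2, while the next subunit gene, Polr2b, had 91.5 and 98.9 TPM. Adarb1, an RNA-editing adenosine deaminase gene, had 2.73 and 1.51 TPM, from 163 and 118 counts, which differed less than the TPM values.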
